A study of Mus musculus with 4 samples.

Results

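The axon guidance ligands and receptors of mouse molar mesenchyme were described from 4 RNA sequencing libraries of embryonic day 13.5. Members were taken by gene symbol and not by any measured value: semaphorins and their plexin and neuropilin receptors, ephrins and Eph receptors, Slits and Robos, and netrins, netrin-Gs and Unc5 receptors. The rule found 70 of 22072 gene symbols, and 49 of the 70 had a mean of at least 1 FPKM (a read level per transcript length and library size) over the 4 libraries. The mutant was Bmp4f/f;Wnt1Cre, in which both Bmp4 alleles are floxed and the Cre recombinase is driven from Wnt1 sequences active in the neural crest, the source of tooth mesenchyme. The control was Bmp4f/+, with 1 floxed and 1 unmodified allele and no Cre in its label, so Bmp4 loss and an effect of the Cre cannot be told apart. All embryos were of a mixed strain background. Lower (mandibular) and upper (maxillary) molar mesenchyme was laser-captured apart, which gave 1 pooled library for each of mutant lower, mutant upper, control lower and control upper molar. The series text gives 3 pairs of control and mutant samples as the pool.

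These families carry signals between cells. Semaphorins bind plexins, and most secreted class 3 semaphorins need a neuropilin as co-receptor. Ephrins are membrane-bound and signal through Eph receptor tyrosine kinases on the neighbouring cell, with A-type ephrins held by a lipid anchor and B-type ephrins crossing the membrane. Slits are secreted and bind Robo receptors, and netrins act through Dcc, Neo1 and Unc5 receptors. All 4 systems were described through the repulsion or attraction of growing axons, and they also act in blood vessels and in mesenchyme. In the developing tooth, Sema3a is known as a repellent that keeps nerve fibres out of the early tooth mesenchyme.

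Each library held about 4820000 to 5550000 reads on annotated transcripts, and 3 reads on a transcript of 2 kb would have given between 0.101 and 0.115 FPKM. Bmp4 was at 4.90 and 4.75 FPKM in the mutant lower and upper molar, against 27.2 and 24.8 FPKM in the control lower and upper molar. Over both molars Bmp4 fell by 2.21 ± 0.11 on the log2 scale (SE; adjusted p = 0.0008 by limma, 2 libraries a genotype), a call that was lost without either control library and without a filter on low values (adjusted p between 4.6e-07 and 0.21 over 11 alternatives). All 13 listed genes of early tooth mesenchyme reached a mean of 1 FPKM, with Msx1 between 98.4 and 150 FPKM. Msx2 had 0.399 and 0.783 FPKM in the mutant lower and upper molar, against 3.1 and 3.77 FPKM in the control lower and upper molar. It was the 1 of the 13 called by genotype (-1.49 ± 0.14, log2, SE, limma adjusted p = 0.015), where 0.457% of all genes tested were called lower. Of the 13, 4 were higher and 6 lower in both mutant molars, against 2852 and 3403 of all 10502 genes tested. Of the 8 Schwann cell genes none reached a mean of 1 FPKM, and their sum was at most 1.81 FPKM. Neuronal genes summed to 13.5 and 22.0 FPKM in the mutant lower and upper molar and to 10.9 and 13.9 FPKM in the control lower and upper molar, of which Gap43 and Nefl made up most. Pou4f1 and Prph, which mark sensory neurons, were listed at 0 in every library. The 13 epithelial genes summed to 22.3 to 24.3 FPKM, with Shh at most 0.0481 FPKM and Cdh1 at most 0.148 FPKM, and the 9 skeletal muscle genes to 3.37 to 3.46 FPKM, with Myod1 at most 0.0438 FPKM. Red blood cell and macrophage genes summed to 1090 and 930 FPKM in the mutant lower and upper molar and to 918 and 1030 FPKM in the control lower and upper molar. In bulk samples such as these, fewer cells of a type and less RNA per cell cannot be told apart.

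The most abundant members were receptors of the Robo and Eph families and membrane-bound semaphorins. Of the 70 genes, 6 averaged 20 FPKM or more, namely Epha7, Robo1, Ephb4, Sema5a, Epha3 and Sema6a. A further 14 lay between 10 and 20 FPKM, 9 between 5 and 10 FPKM and 20 between 1 and 5 FPKM. FPKM is per length of transcript, so these levels can be set beside each other, but only roughly. The RNA was amplified, and how strand and multiply aligned reads were handled is not given. The 14 Eph receptors together had 128 and 123 FPKM in the mutant lower and upper molar and 118 and 114 FPKM in the control lower and upper molar. The 20 semaphorins summed to 103 and 107 FPKM in the mutants, against 108 and 104 FPKM in the controls. Plexins and neuropilins summed to 63.7 and 67.9 FPKM in the mutant lower and upper molar, against 72.9 and 79.7 FPKM in the control lower and upper molar. Ephrins summed to 66.4 and 70.1 FPKM in the mutants and 72.8 and 71.9 FPKM in the controls, Slits and Robos to 64.3 and 66.6 FPKM against 59.8 and 58.4 FPKM, and the netrin group to 30.3 and 29.2 FPKM against 34.2 and 32.9 FPKM. Semaphorin sums overlapped between genotypes and the other 5 did not, with Eph receptors and the Slit and Robo group higher and the other 3 lower in the mutant; these sums were not tested.

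**Figure D1:**
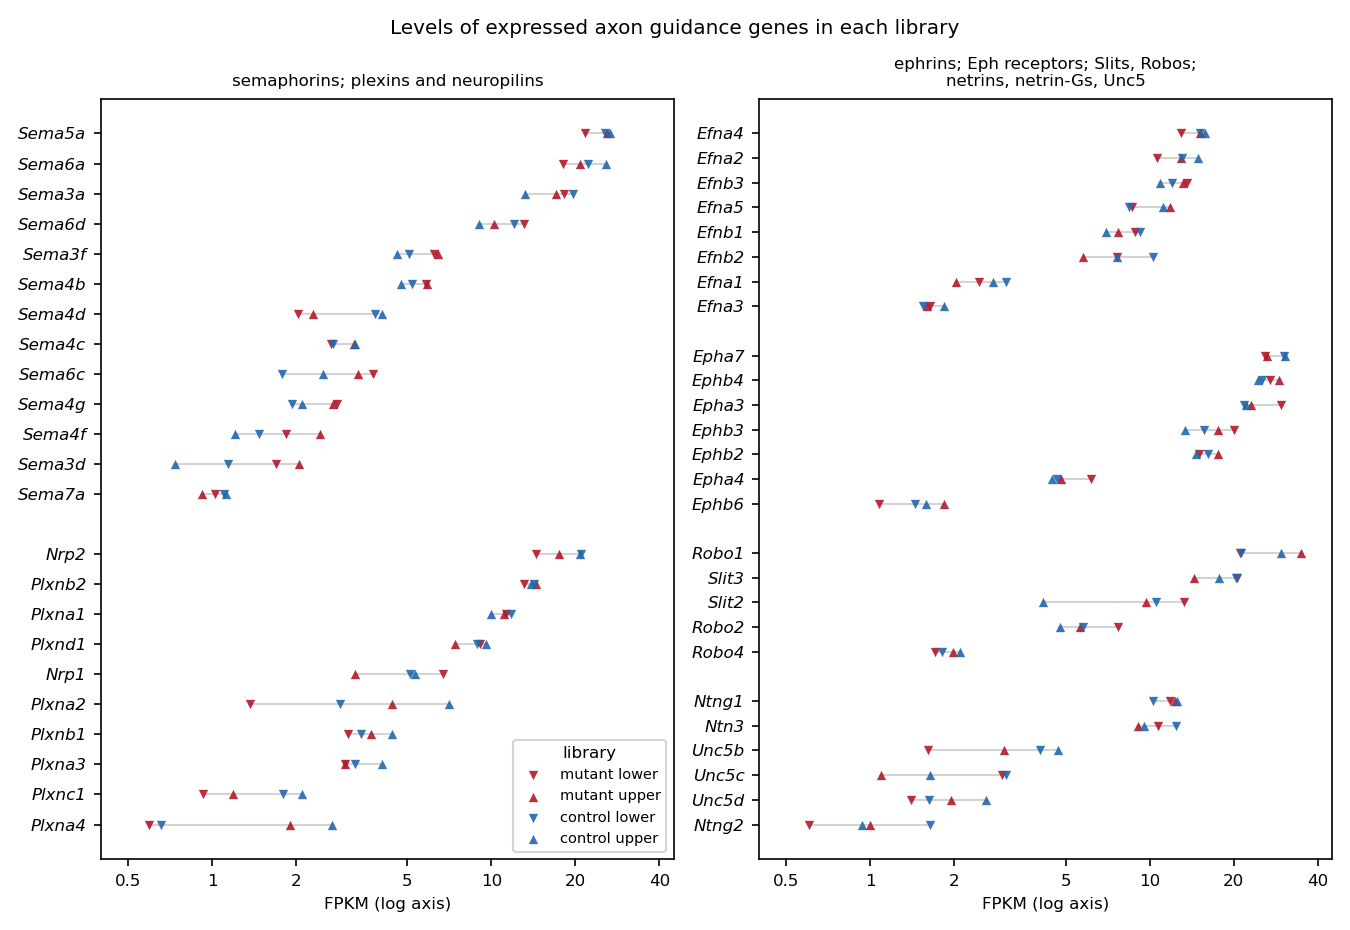
FPKM (log axis) of the 49 members with a mean of at least 1 FPKM, grouped by family and ordered by mean. Each triangle is 1 pooled library (red mutant, blue control, pointing down for the lower and up for the upper molar). The 4 libraries lie close together for most members, and the widest spreads on this axis are those of Plxna2, Plxna4, Slit2, Unc5b and Unc5c, with Plxna2 between 1.37 and 7.05 FPKM.

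In several families a minority of members carried most of the message. Among receptors for A-type ephrins, Epha7 had 26 and 26.3 FPKM in the mutant lower and upper molar and 30.4 and 30.5 FPKM in the control lower and upper molar, and Epha3 had 29.6 and 23.0 FPKM against 21.8 and 22.1 FPKM. Epha1, Epha2, Epha6 and Epha8 had means of at most 0.495 FPKM, and Epha10 was listed at 0 in every library. Among receptors for B-type ephrins, Ephb4, best known from veins, was highest at 27.0 and 29.0 FPKM in the mutants and 25.3 and 24.4 FPKM in the controls. For the ligands, Efna4, Efna2, Efnb3 and Efna5 had means between 10 and 14.7 FPKM, and all 8 ephrins passed 1 FPKM. Slit3 was above Slit2 in every library, while Slit1 had at most 0.0161 FPKM and Robo3, the Robo of commissural neurons, at most 0.0348 FPKM.

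Among semaphorins, Sema5a and Sema6a, which cross the membrane, were highest. Sema5a had 21.7 and 26 FPKM in the mutant lower and upper molar, against 25.6 and 26.7 FPKM in the control lower and upper molar. The secreted Sema3a followed, at 18.2 and 17.1 FPKM in the mutants and 19.6 and 13.2 FPKM in the controls. Of the 7 class 3 semaphorins only Sema3a, Sema3f and Sema3d passed the filter. The co-receptor Nrp2 had a mean of 18.4 FPKM and Nrp1 a mean of 5.10 FPKM, and the plexins Plxnb2 and Plxna1 had means of 13.9 and 11.0 FPKM. For netrins, Ntn1, the best studied attractant, was under 1 FPKM in every library, between 0.583 and 0.963 FPKM. The netrin family was represented by Ntn3 at a mean of 10.4 FPKM and by Ntng1, a lipid-anchored relative that does not bind Dcc, at 11.7 FPKM. Ntn3 overlaps Tbc1d24 in the annotation, and the strand setting of the counting is not given in the sources used here.

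The 21 members under a mean of 1 FPKM were not tested. They were Epha1, Epha2, Epha5, Epha6, Epha8, Epha10, Ephb1, Ntn1, Ntn4, Ntn5, Plxnb3, Robo3, Sema3b, Sema3c, Sema3e, Sema3g, Sema4a, Sema5b, Sema6b, Slit1 and Unc5a. Of these, 4 (Epha5, Sema3e, Sema4a and Sema6b) reached 1 FPKM in at least 1 library. The members nearest the limit were Sema3e, Sema4a and Epha5 below it, at means of 0.894, 0.909 and 0.952 FPKM, and Sema7a and Ntng2 above it, both at 1.04 FPKM. Sema3g, an endothelial semaphorin, had at most 0.125 FPKM.

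The promoters of the members with the largest differences and a single listed start are shown because their fitted differences by molar or genotype were among the largest of the members, of which only that of Plxna2 by molar passed the test. They are the 250 bases before the start, from RefSeq on GRCm38.p6, which is not the build of the deposited values (mm9). Of the 70 members 61 matched this table by symbol. Capitals mark GGCGCC, a GC-rich element known to bind BMP-activated Smads, and CAGAC or its reverse complement GTCTG, the Smad box; the Msx core TAATTG or CAATTA was searched as well, all on both strands.
Plxna2 (chr1:194619579-194619828, plus strand): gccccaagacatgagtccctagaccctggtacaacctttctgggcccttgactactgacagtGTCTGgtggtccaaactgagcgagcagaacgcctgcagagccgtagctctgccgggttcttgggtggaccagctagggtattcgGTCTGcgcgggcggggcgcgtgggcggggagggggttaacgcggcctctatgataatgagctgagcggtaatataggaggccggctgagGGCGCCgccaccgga
Robo1 (chr16:72662899-72663148, plus strand): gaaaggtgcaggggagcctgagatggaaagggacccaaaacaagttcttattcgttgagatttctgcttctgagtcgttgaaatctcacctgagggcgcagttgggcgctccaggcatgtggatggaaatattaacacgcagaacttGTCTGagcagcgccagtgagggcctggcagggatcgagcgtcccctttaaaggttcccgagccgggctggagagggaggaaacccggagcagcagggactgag
Slit2 (chr5:47982905-47983154, plus strand): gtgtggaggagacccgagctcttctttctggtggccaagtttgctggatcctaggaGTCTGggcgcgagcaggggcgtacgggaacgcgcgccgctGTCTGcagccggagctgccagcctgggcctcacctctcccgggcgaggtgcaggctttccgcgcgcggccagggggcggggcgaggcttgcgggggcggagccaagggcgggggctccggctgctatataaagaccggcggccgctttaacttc
Unc5c (chr3:141465314-141465563, plus strand): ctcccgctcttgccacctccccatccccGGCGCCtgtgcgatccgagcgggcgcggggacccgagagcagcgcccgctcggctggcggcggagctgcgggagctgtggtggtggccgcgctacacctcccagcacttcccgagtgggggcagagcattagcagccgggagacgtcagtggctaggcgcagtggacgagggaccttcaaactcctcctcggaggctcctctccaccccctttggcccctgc
Unc5b (chr10:60831582-60831831, minus strand): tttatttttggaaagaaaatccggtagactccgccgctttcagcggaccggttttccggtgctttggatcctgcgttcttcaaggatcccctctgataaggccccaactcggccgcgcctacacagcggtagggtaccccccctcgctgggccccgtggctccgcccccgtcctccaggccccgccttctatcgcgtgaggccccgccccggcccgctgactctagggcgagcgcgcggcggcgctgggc
The Plxna2 window held 1 GGCGCC and 2 copies of the Smad box, the Slit2 window 2 copies of the Smad box, the Robo1 window 1 Smad box and the Unc5c window 1 GGCGCC. The Unc5b window held neither, and TAATTG or CAATTA was in none of the 5. Over all 32851 promoter windows of this length, 9.59% held GGCGCC, 42.2% the Smad box and 7.17% TAATTG or CAATTA. The 5 windows were between 56.0% and 71.2% G and C, against a median of 52.4% over all windows. A match is a description of these letters and no evidence of binding.

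The comparison of lower with upper molar asked which guidance genes differ by jaw. Plxna2, an A-type plexin and signalling receptor for class 3 and class 6 semaphorins, fell in the lower molar and was the only member called. Its paralog Plxna4 and the Slit receptor Robo1 had lower values in the lower molar in both genotypes, and the secreted ligand Slit2 and the netrin receptor Unc5c higher ones, but none of these 4 passed the test. Differences were taken as lower minus upper molar on log2(FPKM + 1) and tested in all 4 libraries with limma, with genotype as a second term and p-values adjusted over 10502 genes. The fit has 1 residual degree of freedom, the disagreement between genotypes, and 5.77 prior degrees of freedom from other genes, so the spread between embryos or pools is not in its p-values.

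Plxna2 (chromosome 1, 196446023 to 196643062, mm9, 1 RefSeq transcript) was at 1.37 FPKM in the mutant lower and 2.87 FPKM in the control lower molar, against 4.42 FPKM in the mutant upper and 7.05 FPKM in the control upper molar. Both lower molars were under both upper molars. Plxna2 fell by 1.12 ± 0.12 on the log2 scale (SE, limma adjusted p = 0.013, lower in the lower molar in 2 of 2 genotypes) and was the 1 member of 49 that passed the test. Over all genes, 0.724% were called, 0.333% lower and 0.390% higher in the lower molar. The call was lost without a filter on low values, without a term for genotype, and without any of the 4 libraries, where Plxna2 was lower by 0.77 to 1.48 (adjusted p between 0.0023 and 1.0 over 10 alternatives). The values rest on about 213 reads in the mutant lower and 725 reads in the mutant upper library.

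Plxna4, the paralog of Plxna2, had 0.593 FPKM in the mutant lower and 0.654 FPKM in the control lower molar, against 1.90 FPKM in the mutant upper and 2.68 FPKM in the control upper molar. The control lower molar held 24.4% of the FPKM of the control upper molar. The difference was -1.01 ± 0.16 (log2, SE), short of the threshold (limma adjusted p = 0.058, between 0.014 and 1.0 over 10 alternatives), and with a pseudocount of 0.1 it was -1.71. The A-type plexins did not all follow: Plxna1 had 11.3 and 11.8 FPKM in the mutant and control lower molar, against 11.1 and 9.94 FPKM in the mutant and control upper molar, and Plxna3 had 3.00 and 3.26 FPKM against 3.00 and 4.07 FPKM. Plxna2 and Plxna4 were also the only members lower by at least 1.5-fold in the lower molar in both genotypes, 2 of 49 where 0.619% of all genes were.

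Unc5c (chromosome 3, 141128528 to 141497886, mm9), a receptor for repulsive netrin signals, had 2.95 and 3.05 FPKM in the mutant and control lower molar, against 1.09 and 1.64 FPKM in the mutant and control upper molar. It was the 1 member at least 1.5-fold higher in the lower molar in both genotypes, where 0.562% of all genes were. Its difference of 0.77 ± 0.14 (log2, SE) missed the threshold (limma adjusted p = 0.097, between 0.035 and 1.0 over 10 alternatives). Its relatives Unc5b and Unc5d went the other way. Unc5b, an Unc5 receptor also found on endothelial tip cells, had 1.61 and 4.05 FPKM in the mutant and control lower molar against 3.00 and 4.71 FPKM in the upper, and Unc5d had 1.4 and 1.62 FPKM against 1.95 and 2.59 FPKM.

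Robo1 (chromosome 16) had 21.0 and 21.2 FPKM in the mutant and control lower molar, against 34.8 and 29.6 FPKM in the mutant and control upper molar. Robo2, which binds the same ligands, had 7.72 and 5.75 FPKM in the lower and 5.62 and 4.77 FPKM in the upper molars. Of the ligands, Slit2 had 13.3 and 10.5 FPKM in the mutant and control lower molar against 9.72 and 4.16 FPKM in the upper, and Slit3 had 20.6 and 20.4 FPKM against 14.4 and 17.7 FPKM. The lower and upper molars did not overlap for any of these 4 genes. The receptor Robo1 was higher in the upper molar, and the 2 Slits and Robo2 were higher in the lower molar. Over all genes tested, 12.2% were higher and 21.2% lower in the lower molar without overlap. The differences were -0.58 ± 0.11 for Robo1, 0.79 ± 0.18 for Slit2, 0.34 ± 0.12 for Slit3 and 0.31 ± 0.11 for Robo2 (log2, SE), and none passed the test (limma adjusted p = 0.11, 0.16, 0.38 and 0.41). Of the 12 neuronal markers, Gap43, a growth cone protein, had 6.46 and 6.72 FPKM in the mutant and control lower molar against 13.6 and 11.3 FPKM in the upper. Gap43 fell by 0.82 ± 0.12 (log2, SE, limma adjusted p = 0.044, between 0.0017 and 1.0 over 11 alternatives), a call lost without any 1 library and under 4 other alternatives. The other 11 neuronal markers did not share this direction: they summed to 7.07 and 4.13 FPKM in the mutant and control lower molar against 8.35 and 2.58 FPKM in the upper, 3 of them (Nefm, Stmn2 and Snap25) were higher in the lower molar in both genotypes, and 0 were lower in both. Of the 13 genes of early tooth mesenchyme, 8 were lower and 3 higher in the lower molar in both genotypes. Their median molar difference was -0.32 (log2), against -0.04 over all genes tested, and 0 of the 13 were called. An unadjusted limma p under 0.05 was reached by 7 lower and 3 higher, against 6.12% and 4.11% of all genes tested. Dlx2 fell most (-0.8) and Twist1 rose most (0.61). The parts of nerve fibres and of differences in the mesenchyme itself in the molar differences were not tested. At a filter of 5 FPKM, which left 29 members, Robo1 and Slit2 were called (adjusted p = 0.025 and 0.015, between 0.025 and 1.0 for Robo1 and 0.015 and 1.0 for Slit2 over 11 alternatives) and Plxna2 was not tested.

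Of the ephrin ligands, Efnb2 and Efnb1 were higher and Efna5 lower in the lower molar, with no overlap between molars. Of all genes tested, 12.2% were higher and 21.2% lower in this way. Efnb2 had 7.67 and 10.3 FPKM in the mutant and control lower molar against 5.75 and 7.64 FPKM in the upper, Efnb1 had 8.90 and 9.22 FPKM against 7.70 and 6.98 FPKM, and Efna5 had 8.65 and 8.43 FPKM against 11.8 and 11.2 FPKM. None passed the test (limma adjusted p = 0.28, 0.47 and 0.26). The Eph receptors differed little by molar: all 7 tested had a fitted difference between -0.26 (Ephb6) and 0.20 (Ephb3, SE 0.10). Sema6d, a ligand of A-type plexins, had 13.1 and 12.1 FPKM in the mutant and control lower molar against 10.2 and 9.0 FPKM in the upper (0.36 ± 0.11, log2, SE, limma adjusted p = 0.29). Sema3a was at 18.2 and 19.6 FPKM in the lower molars and 17.1 and 13.2 FPKM in the upper molars (0.31 ± 0.14, adjusted p = 0.51), a difference that came mostly from the control pair. Sema6a was at 18.0 and 22.2 FPKM in the lower and 20.7 and 25.8 FPKM in the upper molars.

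**Figure D2:**
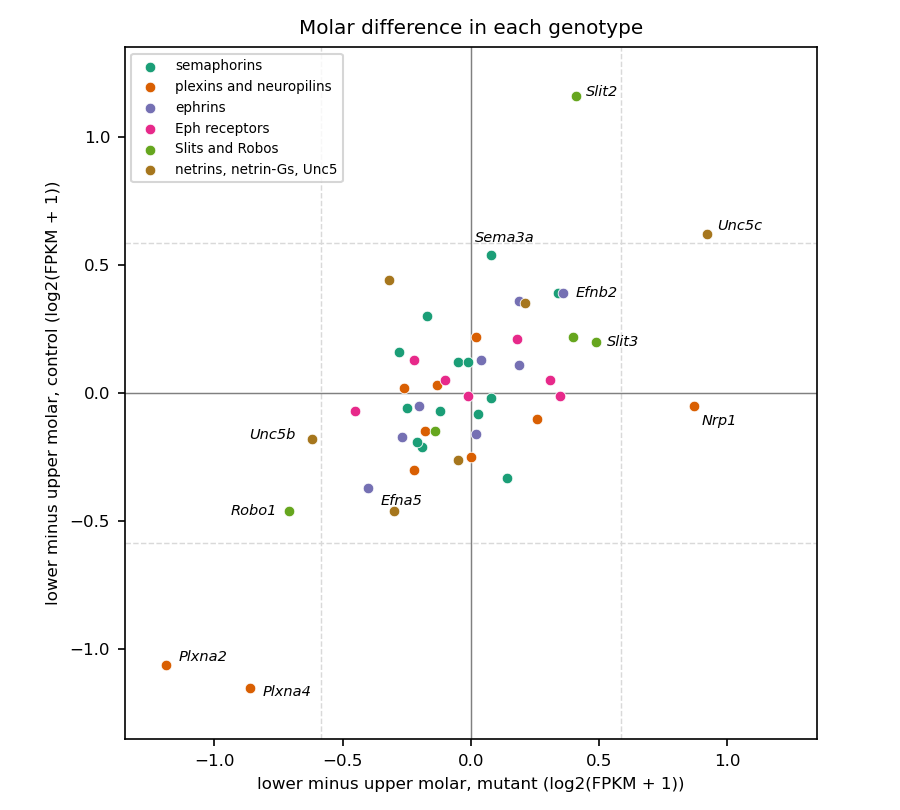
Lower minus upper molar on log2(FPKM + 1), in mutants (x axis) and controls (y axis), for the 49 tested members coloured by family, with dashed lines at 1.5-fold. Each axis is a difference of 2 pooled libraries. Plxna2 and Plxna4 lie past 1.5-fold in both genotypes on the lower side and Unc5c on the higher side, while Nrp1 stands apart in the mutants alone, at 0.87 against -0.05 in the controls.

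Counted over the 49 tested members, 14 were higher and 19 lower in the lower molar in both genotypes, and 16 differed in direction or not at all. The median was -0.02, against -0.04 over all genes tested (log2). An unadjusted limma p under 0.05 was reached by 14 members, 28.6%, against 10.2% of all genes, with 8 higher (Unc5c, Slit2, Efnb2, Sema6d, Slit3, Robo2, Ntn3 and Efnb1; 16.3% against 4.11%) and 6 lower (Plxna2, Plxna4, Robo1, Efna5, Unc5b and Unc5d; 12.2% against 6.12%). Lower and upper molars did not overlap for 10 members higher and 11 lower in the lower molar, or 20.4% and 22.4%, against 12.2% and 21.2% of all genes. For 35 of the 49 members the fitted molar difference was under 0.3 in size. Without transcripts under 300 bases or with an estimate that was not OK, limma called 4 members by molar (Plxna2, Plxna4, Robo1 and Unc5c).

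The comparison of mutant with control asked which guidance genes differ when Bmp4 is deleted. No member passed the test. The largest differences were lower levels of the netrin receptor Unc5b, the semaphorin Sema4d and the plexins Plxna2 and Plxnc1 in the mutant, and higher levels of Slit2, Sema3d and Sema6c. limma called 0 of 49 members at an adjusted p under 0.05, where 0.800% of all genes were called, 0.343% higher and 0.457% lower. An unadjusted p under 0.05 was reached by 15 members, 30.6% against 13.2% of all genes. Of these 8 were higher (16.3%, against 6.68% of all genes) and 7 lower (14.3%, against 6.51%). Without transcripts under 300 bases or with an estimate that was not OK, limma called Plxna2, Sema4d and Unc5b lower (adjusted p = 0.040, 0.042 and 0.042), and at a filter of 5 FPKM Slit2 higher (0.032).

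Sema4d (chromosome 13), a membrane semaphorin whose main receptor is Plxnb1, had 2.03 and 2.30 FPKM in the mutant lower and upper molar, against 3.82 and 4.05 FPKM in the control lower and upper molar. Both mutants were under both controls. On log2(FPKM + 1), Sema4d was the 1 member lower by at least 1.5-fold in both molars, where 0.686% of all genes were and 0.590% were higher by as much. The difference was -0.64 ± 0.12 (log2, SE, limma adjusted p = 0.090, between 0.042 and 0.97 over 10 alternatives). With a pseudocount of 0.1, and on FPKM itself, Plxna2, Plxnc1 and Unc5b were past 1.5-fold in both molars too. Plxnb1 was at 3.06 and 3.72 FPKM in the mutants and 3.40 and 4.41 FPKM in the controls.

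Unc5b had 1.61 and 3.00 FPKM in the mutant lower and upper molar, against 4.05 and 4.71 FPKM in the control lower and upper molar, with no overlap (-0.73 ± 0.14, log2, SE, limma adjusted p = 0.11, between 0.042 and 0.97 over 10 alternatives). Without the mutant lower library, the lowest of the 4, and with no term for the molar, the difference was -0.42. It was -0.95 in the lower and -0.51 in the upper molar. Plxna2, described above for the molars, had 47.9% of the control FPKM in the lower and 62.7% in the upper molar, a difference of -0.64 ± 0.12 (limma adjusted p = 0.087, between 0.040 and 0.99 over 10 alternatives). Within each molar the difference was -0.71 in the lower and -0.57 in the upper. Fits that left out 1 library had no term for the molar, so they mixed the molars unequally between genotypes. They gave -0.04 without the mutant lower and -0.11 without the control upper library. Without the mutant upper library they gave -1.23, and without the control lower library -1.17. The mutant and control libraries of Plxna2 overlapped, since the mutant upper molar was above the control lower molar. Plxnc1, the receptor of Sema7a, had 0.927 and 1.19 FPKM in the mutants and 1.80 and 2.10 FPKM in the controls (-0.52 ± 0.15, adjusted p = 0.22). Nrp2, co-receptor of Sema3f, had 14.5 and 17.5 FPKM against 21.0 and 20.7 FPKM (-0.37 ± 0.12, adjusted p = 0.28). Among plexins and neuropilins 6 of 10 tested members were lower in both mutant molars and 0 higher, and 0 were called. The median was -0.18 (log2), against -0.02 over all genes. Of all 10502 genes tested, 3403 were lower and 2852 higher in both mutant molars.

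Some of these receptors are also expressed by vessels. The 16 endothelial markers summed to 65.1 and 58.1 FPKM in the mutant lower and upper molar, against 69.5 and 75.6 FPKM in the control lower and upper molar. Of the 15 tested, 7 were lower in both mutant molars, 0 were higher in both, 8 were mixed and 0 were called (median -0.14, log2). For this and the next 2 lists, the measure over all 10502 genes tested was 3403 lower and 2852 higher in both mutant molars, with 0.457% called lower. The 10 pericyte and smooth muscle markers summed to 37.8 and 41.2 FPKM in the mutants and 57.4 and 60.9 FPKM in the controls, with Rgs5 at 9.48 and 9.03 FPKM against 25 and 31.8 FPKM. Without Rgs5 the other 9 summed to 28.3 and 32.2 FPKM in the mutants and 32.3 and 29.0 FPKM in the controls, which overlap. Of the 5 tested, 3 were lower in both mutant molars, namely Rgs5, Notch3 (6.38 and 6.51 against 9.03 and 8.7 FPKM) and Cspg4 (2.45 and 1.84 against 2.55 and 2.45 FPKM). Pdgfrb, the largest part of the sum without Rgs5, was higher in both, at 16.1 and 20.2 FPKM against 15.6 and 14.1 FPKM. Acta2 was at 1.85 and 2.62 FPKM against 1.85 and 1.58 FPKM. Of those under a mean of 1 FPKM, Kcnj8, Abcc9 and Tagln were lower in both mutant molars, Myh11 was higher in both and Des differed in direction. Rgs5, the 1 called, fell by 1.51 ± 0.13 (log2, SE, limma adjusted p = 0.011, between 4.6e-05 and 0.63 over 11 alternatives), a call lost without any 1 library, and under rescaling, no filter or no term for the molar. The 9 cartilage and bone genes summed to 17.1 and 11.6 FPKM in the mutants and 26.2 and 26.6 FPKM in the controls, with 3 of 4 tested lower in both mutant molars. These were Sox9 (1.6 and 3.43 against 5.04 and 8.78 FPKM), Sp7 (4.25 and 1.92 against 7.04 and 8.92 FPKM) and Alpl (4.99 and 1.99 against 7.13 and 4.53 FPKM). Sox9 was the 1 called (-1.18 ± 0.11, log2, SE, limma adjusted p = 0.015), and its call was not followed through the alternatives. Col2a1 was at 6.23 and 4.17 FPKM against 5.96 and 4.20 FPKM. The part of these cells in the differences of Unc5b, Sema4d, Plxnc1 and Nrp2 was not tested. Robo4, an endothelial Robo, had 1.71 and 1.98 FPKM in the mutants and 1.80 and 2.09 FPKM in the controls, and Ephb4 was higher in both mutants than in both controls.

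Nrp1, receptor for Sema3a and for vascular endothelial growth factor, had 6.74 FPKM in the mutant lower and 3.24 FPKM in the mutant upper molar, against 5.10 FPKM in the control lower and 5.33 FPKM in the control upper molar. Its genotype difference was 0.34 in the lower and -0.58 in the upper molar (log2), with 1 library each and no test of the difference between molars. Plxnd1, the plexin of endothelial cells, had 9.10 and 7.41 FPKM in the mutant lower and upper molar and 8.87 and 9.58 FPKM in the control lower and upper molar. For both genes the mutant upper library was the lowest of the 4, as it was for the sum of the endothelial markers; the part of vessels in this was not tested.

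Slit2 was higher in the mutant within each molar, at 13.3 FPKM against 10.5 FPKM in the lower and 9.72 FPKM against 4.16 FPKM in the upper molar (0.68 ± 0.18, log2, SE, limma adjusted p = 0.20, between 0.032 and 0.98 over 11 alternatives). The control upper library was the lowest of the 4. Without it, and with no term for the molar, the genotype difference was 0.10, and without the control lower library it was 1.26. Within each molar the difference was 0.31 in the lower and 1.06 in the upper. Slit3 was at 20.6 and 14.4 FPKM in the mutants and 20.4 and 17.7 FPKM in the controls. Robo2 was higher in the mutant within each molar (7.72 against 5.75 FPKM and 5.62 against 4.77 FPKM, adjusted p = 0.36), and Robo1 was at 21.0 and 34.8 FPKM against 21.2 and 29.6 FPKM.

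Of 13 tested semaphorins, 7 were higher in both mutant molars and 5 lower, with a median of 0.13 (log2) and 0 called. Of all 10502 genes tested, 2852 were higher and 3403 lower in both. Sema3d, a secreted semaphorin, had 1.70 and 2.04 FPKM in the mutant lower and upper molar, against 1.14 and 0.737 FPKM in the control lower and upper molar (0.57 ± 0.18, log2, SE, limma adjusted p = 0.26). Sema3f had 6.21 and 6.45 FPKM against 5.06 and 4.59 FPKM (adjusted p = 0.30). Sema6c had 3.78 and 3.33 FPKM against 1.78 and 2.49 FPKM (0.55 ± 0.15, adjusted p = 0.21), and Sema4f had 1.84 and 2.44 FPKM against 1.47 and 1.21 FPKM (adjusted p = 0.36). Mutant and control libraries did not overlap for any of these 4 genes, all higher in the mutant, as was so for 18.4% of all genes tested. Sema6a was lower, at 18.0 and 20.7 FPKM in the mutants and 22.2 and 25.8 FPKM in the controls (-0.30 ± 0.10, adjusted p = 0.31). Sema3a had no shared direction, with a difference of -0.10 in the lower and 0.35 in the upper molar.

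In the Eph system the receptors were mostly a little higher and the ligands Efnb2, Efna1 and Efna2 lower in the mutant. Ephb3 had 20.1 and 17.6 FPKM in the mutant lower and upper molar, against 15.7 and 13.4 FPKM in the control lower and upper molar (0.35 ± 0.10, log2, SE, limma adjusted p = 0.24). Epha4 had 6.19 and 4.80 FPKM against 4.66 and 4.47 FPKM (0.21 ± 0.12), and Epha3 was higher by 0.42 in the lower and 0.06 in the upper molar (0.24 ± 0.13). Of 7 tested Eph receptors 4 were higher and 1, Epha7, lower in both molars, where 2852 of all 10502 genes were higher and 3403 lower. Efnb2, a ligand of Ephb4 in vessels and also made by mesenchyme, had 7.67 and 5.75 FPKM in the mutants against 10.3 and 7.64 FPKM in the controls (-0.37 ± 0.11, adjusted p = 0.23). Efna1 had 2.44 and 2.02 FPKM against 3.05 and 2.75 FPKM (-0.28 ± 0.12), and Efna2 had 10.6 and 13.0 FPKM against 13.1 and 14.9 FPKM (-0.23 ± 0.11). Efnb3 was higher in both mutants, at 13.6 and 13.2 FPKM against 12 and 10.9 FPKM. No Eph receptor or ephrin passed the test.

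Of the netrin group, 4 of 6 tested members were lower in both mutant molars and 0 higher, with 0 called. Of all 10502 genes tested, 3403 were lower and 2852 higher in both. Unc5c had 2.95 and 1.09 FPKM in the mutant lower and upper molar, against 3.05 and 1.64 FPKM in the control lower and upper molar. Unc5d had 1.4 and 1.95 FPKM against 1.62 and 2.59 FPKM (-0.21 ± 0.14, log2, SE, limma adjusted p = 0.58). Ntng2 had 0.603 and 1.0 FPKM against 1.63 and 0.936 FPKM and so differed in the lower molar alone, on about 14 reads in the mutant lower library. Ntng1 was at 11.8 and 12.3 FPKM in the mutants and 10.3 and 12.5 FPKM in the controls.

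**Figure D3:**
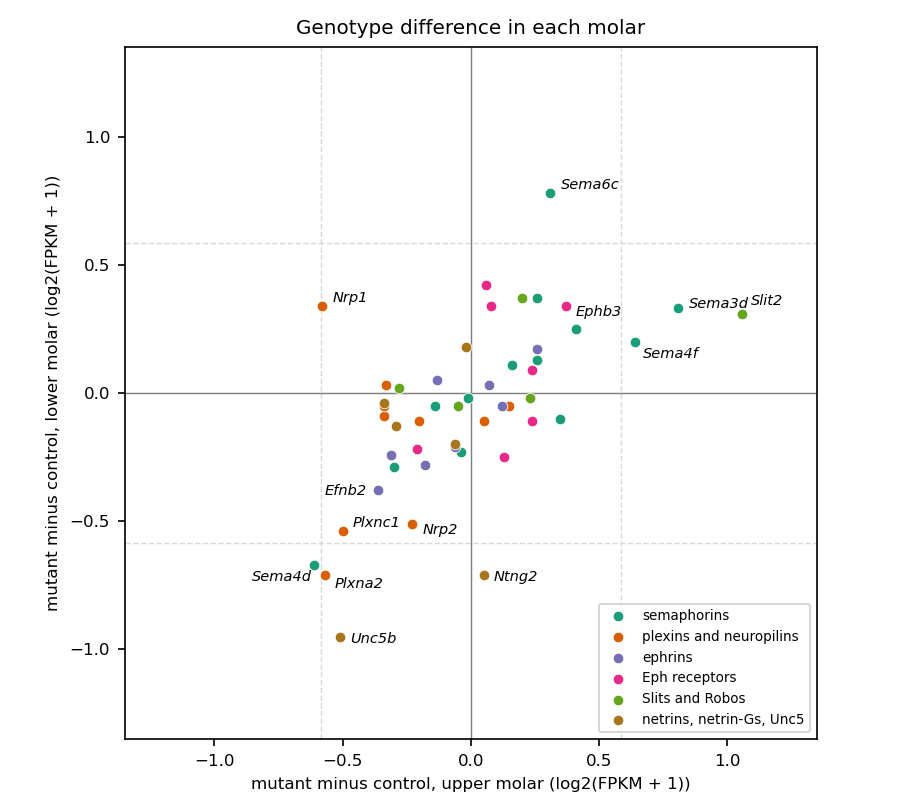
Mutant minus control on log2(FPKM + 1), in the upper molar (x axis) and the lower molar (y axis), for the 49 tested members coloured by family, with dashed lines at 1.5-fold. Each axis is a difference of 2 pooled libraries. Most members lie near the origin, Sema4d lies past 1.5-fold in both molars, and Nrp1 lies at 0.34 in the lower molar but at -0.58 in the upper.

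Counted over the 49 tested members, 15 were higher in both mutant molars and 21 lower, where 2852 of all 10502 genes were higher and 3403 lower. The median difference of the members was -0.05, against -0.02 over all genes (log2). Mutant and control libraries did not overlap for 11 members higher and 11 lower, 22.4% each, against 18.4% and 23.1% of all genes. For 35 of 49 members the fitted genotype difference was under 0.3 in size, and the fitted values ran from -0.73 (Unc5b) to 0.68 (Slit2).

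**Figure D4:**
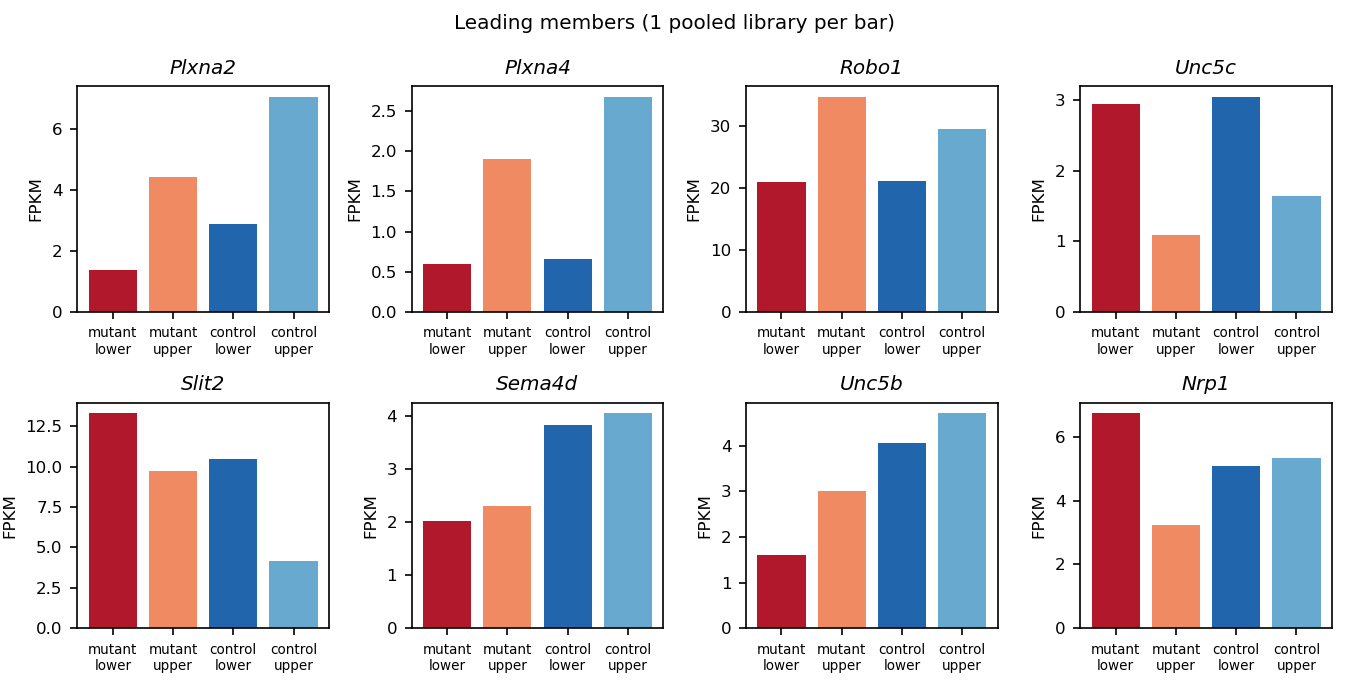
FPKM of 8 members in each of the 4 pooled libraries, with 1 library per bar and no error bars because no group has a replicate. Plxna2, Plxna4 and Robo1 are low and Unc5c and Slit2 high in the lower molar of each genotype. Sema4d and Unc5b are low in both mutant libraries, and Nrp1 is lowest in the mutant upper molar at 3.24 FPKM.

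The other genes of the axon guidance pathways, 56 receptors, adaptors and cytoskeletal effectors of which 44 were tested, moved little. Over all genes tested, limma called 0.343% higher and 0.457% lower in the mutant. Of the 44, it called 0 higher and 1 lower. This was Mical2, an actin-oxidising enzyme of a family that acts downstream of plexins, at 0.653 and 1.86 FPKM in the mutant lower and upper molar, against 3.96 and 4.90 FPKM in the control lower and upper molar (-1.32 ± 0.16, log2, SE, limma adjusted p = 0.028, between 0.0063 and 0.97 over 10 alternatives, -1.89 with a pseudocount of 0.1). The call was lost without any 1 library, and under rescaling, no filter or no term for the molar. Other low values in the mutant were those of Flrt1, an Unc5-binding membrane protein, at 0.640 and 0.746 FPKM against 1.18 and 2.19 FPKM, of the adhesion molecule Nrcam (1.11 and 1.53 against 1.70 and 2.27 FPKM) and of Neo1, the netrin and Rgm receptor (23.3 and 25.5 against 28.7 and 32.0 FPKM). The highest differences were those of Flrt2, a ligand of Unc5 receptors, at 13.2 and 13.6 FPKM in the mutants against 10.4 and 8.12 FPKM in the controls, of Rgma, a ligand of Neo1 (5.96 and 5.57 against 3.93 and 3.86 FPKM), of the adaptor Nck1 (5.39 and 7.06 against 4.85 and 3.70 FPKM), and of the netrin receptor Dcc (1.66 and 1.05 against 0.798 and 1.09 FPKM). None of these 7 passed the test, and the list's median genotype difference was -0.04.

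By molar, limma called 1 of the 44 higher and 0 lower in the lower molar, against 0.390% and 0.333% of all genes tested. Dpysl3, a collapsin response mediator that transmits semaphorin signals to the cytoskeleton, had 16.8 and 16.3 FPKM in the mutant and control lower molar, against 6.19 and 7.13 FPKM in the mutant and control upper molar. It rose by 1.2 ± 0.11 (log2, SE, limma adjusted p = 0.0088, between 5.2e-05 and 0.60 over 11 alternatives, higher in the lower molar in 2 of 2 genotypes), and the call was lost without any 1 library and without a filter. Its relatives Dpysl2 (30.6 and 35.8 against 33.7 and 37.1 FPKM) and Crmp1 (3.37 and 3.01 against 2.48 and 2.31 FPKM) did not pass the test. The median molar difference of the list was -0.05.

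Of the 49 tested members 11 had more than 1 RefSeq transcript in the authors' tables, and the division of FPKM among near-identical transcripts was less steady than the sum. Plxnb2 summed to 13.1 and 14.4 FPKM in the mutant lower and upper molar and 14.2 and 13.9 FPKM in the control lower and upper molar. Its shorter transcript of 6432 bases was given 7.87 and 9.63 FPKM in the mutants against 1.62 and 0.0127 FPKM in the controls, and both transcripts had a failed estimate in the control upper library, so this division is uncertain. For Sema6d, the transcript of 6502 bases had 6.15 and 5.57 FPKM in the mutant and control lower molar against 2.02 and 2.41 FPKM in the mutant and control upper molar. The transcript of 6445 bases had 6.11 and 5.74 FPKM in the lower and 6.43 and 6.29 FPKM in the upper molars, so in the authors' estimates the molar difference of Sema6d lay in the longer form.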

How the data were processed

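RNA of laser-captured molar mesenchyme was amplified to cDNA with a NuGEN Ovation kit and made into libraries with an Illumina Nextera kit, per the labels' protocols. Per the submitters' processing notes, TopHat 1.4.1, Bowtie 0.12.7 and the mm9 build were used. The authors deposited FPKM for 28107 RefSeq transcripts in a Cufflinks layout, per the file headers, with the deposited coverage (signal), which was used only to estimate reads. How strand and multiply aligned reads were handled is not given in the sources used here.

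FPKM was summed per symbol. The 10502 genes averaging 1 FPKM or more were fitted as log2(FPKM + 1) with limma 3.58.1 in R 4.3.3, with genotype and molar as additive terms, an intensity trend and two-sided tests, Benjamini-Hochberg adjusted over all genes at 0.05. The script was tested on simulated data. FPKM keeps no whole counts, so no count test was run. Reads were coverage times length divided by 44.2 bases, the mean size of single-read genes over the libraries, and cover counting error only. Samples were grouped by their labels, with 1 library for each genotype and molar.

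The members and lists were chosen with earlier results of these data known. Named members were, in each of 6 families, the 4 highest in level and the 3 with the largest genotype and the 3 with the largest molar difference, with all members called or past 1.5-fold in both pairs. Sema3f, Sema4f, Plxna3, Plxnb1, Robo4, Dpysl2 and Crmp1 are outside this rule and were added after their values were seen. From the other pathway genes, those called and up to 4 in each direction with the largest genotype difference were named. Draxin was matched by an older symbol. Alternatives changed the pseudocount, filter, scaling, transcripts, trend and model terms, and left out each library in turn. Fits without 1 library had no term for the other factor. Sema4d has several listed starts and Plxna4 was not matched, so their promoters are not shown.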

Additional observations from a re-analysis of the deposited data

Results flagged for a closer look

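Nrp1 was the 1 tested member whose genotype difference ran in opposite directions in the 2 molars past a small fold limit in each. The mutant minus control difference was 0.34 in the lower molar and -0.58 in the upper molar (log2(FPKM + 1)). The difference between molars was not tested, since each value rests on 1 library per genotype.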

How the results depend on the processing

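No paired analysis was possible because the labels give no replicate numbers; the term for the molar in the genotype fit, and for genotype in the molar fit, stands in its place. The number of members called by genotype was 0, and was 1 at a filter of 5 FPKM and 3 without short or not-OK transcripts. It was 0 in every fit that left out 1 library, where the lone library is assumed to vary like the rest. The number called by molar was 1. It was 0 without a filter on low values, 0 without a term for genotype, 2 at a filter of 5 FPKM, 2 without an intensity trend, 4 without short or not-OK transcripts, and between 0 and 0 without 1 library. The number past 1.5-fold in both molars was 1, and was 4 with a pseudocount of 0.1 and 0 at a filter of 5 FPKM. The number past 1.5-fold in both genotypes was 3, and 0 at a filter of 5 FPKM, which removed all 3 genes. Fits that left out 1 library had no term for the other factor, so they mixed molars or genotypes unequally. In them the genotype difference ran from -0.37 to 0.11 for Slit3 (positive without the mutant upper library). For Unc5d it ran from -0.43 to 0.02 (positive without the control upper library). The molar difference of Unc5b ran from -0.87 to 0.08 (positive without the mutant lower library). In the pair still complete in each of these fits, the difference was 0.02 for Slit3 and -0.13 for Unc5d (lower molar), and -0.18 for Unc5b (controls). Of 478 values of named genes under the alternatives, 429 kept both direction and side of the threshold, 36 lost a call, 10 gained one and 3 changed direction. Most of the values belong to effects not called in the main fit, which keep their side by staying uncalled. The called effects that were followed through the alternatives kept the call in between 3 of 11 (Gap43) and 8 of 11 (Bmp4). The genotype calls of Sox9 and Msx2 were not followed in this way. Apart from the term dropped in fits without 1 library, the causes of these changes were not tested. Depth limits members near 1 FPKM, such as Ntng2 on about 14 reads in the mutant lower library.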
